A study of Mus musculus with 21 samples.

Results

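The MAPK phosphatases and the Sprouty family genes examined here comprise 10 genes, Dusp1, Dusp2, Dusp4, Dusp5, Dusp6, Dusp10, Dusp16, Spry1, Spry2 and Spred1, out of 45706 genes in the table. They were chosen by gene symbol, and each symbol matched 1 row. RNA was sequenced from myeloid cells sorted from the brains of adult male mice on the C57BL/6 background. Mice received controlled cortical impact (CCI), a mechanical impact on the exposed cortex, or a sham operation with craniotomy and no impact. Injured mice were wildtype (WT) or carried the Fgg390-396A allele, whose fibrinogen still clots but lacks the motif that binds the leukocyte integrin CD11b/CD18. The allele is germline and so is present in every cell of the mutant mice, while fibrinogen itself is made mainly by the liver.

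There were 7 groups of 3 libraries, 21 in all, and each library was made from 2 brains pooled at random. Microglia were sorted as live CD45low CD11b+ cells from wildtype sham mice and from WT and Fgg390-396A mice at day 1 and day 7 after CCI. For the sham libraries no day after the operation is labelled, so in comparisons with sham injury cannot be told apart from time since surgery. Infiltrating myeloid cells were sorted as live CD45hi CD11b+ cells from both genotypes at day 1 only. No mutant sham group was used here, so each genotype was compared with the same 3 wildtype sham libraries, and the comparisons with sham are not independent of each other. In bulk libraries such as these, a change in the mix of cells and a change of RNA per cell cannot be told apart.

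Total counts per library ranged from 18896957 to 51875767. Levels are given as CPM, the count scaled to library size with TMM factors, on which a floor of 3 counts equals 0.0448 to 0.158 CPM depending on the library. Floors and counting intervals leave out every error but that of counting, and amplified reads are not independent molecules. Gene length had been divided out of the deposited values, so CPM can be set side by side between genes. The summed level of 9 microglia markers was 11136 to 12262 CPM in sham microglia, 2766 to 4655 in WT and 5317 to 6887 in Fgg390-396A microglia at 1 d, 7128 to 9378 at 7 d, and 333 to 952 in infiltrating cells. The sum of 8 monocyte markers was 6.28 to 66.7 CPM in microglia libraries and 830 to 1345 in infiltrating cells. Each sort was thus enriched for the markers of its label, but neither was free of those of the other. The infiltrating cells also held 2516 to 12992 CPM of 10 neutrophil markers, and a CD45hi CD11b+ gate does not separate neutrophils from monocytes. Fgg was at 0 counts in every WT and sham library and at 0 to 14 counts in the Fgg390-396A libraries, but a change of a few residues cannot be checked from a level.

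MAP kinases are switched on by phosphorylation of a threonine and a tyrosine, and dual-specificity phosphatases (DUSPs) of the MAP kinase phosphatase class remove both phosphates. Many of these phosphatase genes are themselves transcribed when the pathway is active, which makes them a negative feedback. Sprouty and Spred proteins act higher up and restrain the step from receptor and Ras to Raf and ERK. In myeloid cells the p38 and JNK arms help control cytokine output, and Dusp1 is a well-known brake on them.

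At the level of RNA, the 10 genes fell into abundant and rare ones. In sham microglia Dusp6, which acts on ERK in the cytoplasm, was the highest at 80.8 ± 31.0 CPM (SD, n = 3), followed by Dusp1 at 51.7 ± 53.3 and Spred1 at 29.5 ± 6.24 CPM. Dusp16, a phosphatase of JNK and p38, stood at 9.70 ± 2.57 CPM. The other 6 genes were each at 2.18 CPM or less there, and Dusp5 was the lowest at 0.116 ± 0.112 CPM. The rare genes rest on few counts, down to 0 in a library, and their intervals are wide.

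**Figure D1:**
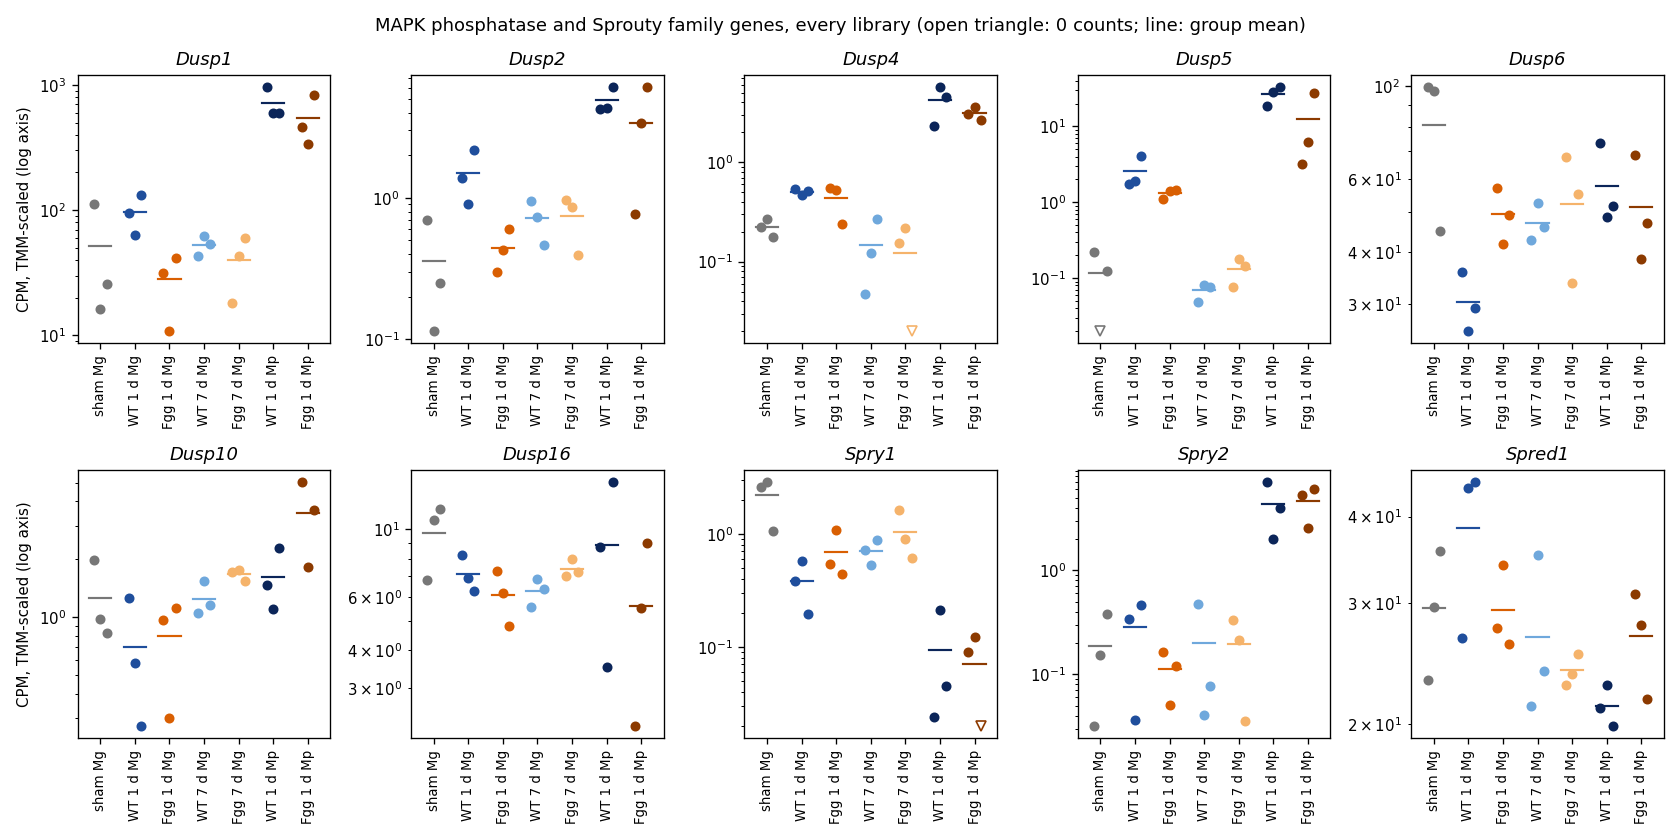
CPM of each of the 10 genes (log axis) in every library of the 7 groups, where Mg are microglia and Mp are CD45hi CD11b+ infiltrating cells, points are libraries, lines are group means and open triangles are libraries with 0 counts. Dusp5 separates 1 d microglia from sham and 7 d microglia, Dusp1, Dusp4, Dusp5 and Spry2 are highest in infiltrating cells, and Spry1 is lowest there.

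Dusp5, a nuclear phosphatase that is selective for ERK, showed the clearest time course (GRCm38, chromosome 19, 53529109 to 53542431, plus strand). In sham microglia it had 7, 0 and 5 counts, or 0.223, 0 and 0.126 CPM. At 1 d after CCI it was at 1.76, 1.92 and 4.02 CPM in WT microglia and at 1.10, 1.41 and 1.45 CPM in Fgg390-396A microglia. At 7 d it was back at 0.0478, 0.0813 and 0.0773 CPM in WT microglia and at 0.0768, 0.179 and 0.143 CPM in Fgg390-396A microglia. Every 1 d library thus lay above every sham and every 7 d library. Of all genes, 33.8% in WT and 29% in Fgg390-396A mice had 1 d microglia that did not overlap sham. Between 1 d and 7 d the shares were 29.4% and 27.3%.

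The promoter of Dusp5 is shown because it holds a motif that few promoters hold. In the RefSeq sequence around the gene's start (GRCm38.p6), the stretch from 110 to 31 bases before the start, chr19:53529035-53529114 on the plus strand, reads as follows, with a tandem pair of CArG boxes, the binding motif of serum response factor, in capitals.
Dusp5: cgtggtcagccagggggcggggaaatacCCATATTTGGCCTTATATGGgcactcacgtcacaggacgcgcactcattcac
The boxes begin 82 and 72 bases before this RefSeq start, which lies slightly inside the GENCODE span of the gene that begins at 53529109. A CArG box was found in 1.63% of 32851 RefSeq promoter sequences of the same length (250 bases before to 50 after the start, both strands searched), and in 1 of the 9 promoters of the 10 genes that the table held, that of Dusp5. The match is a description of the letters only.

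Against sham, Dusp5 rose in WT microglia at 1 d by 4.36 ± 0.77 on the log2 scale (SE, edgeR, adjusted p = 0.00038). In Fgg390-396A microglia at 1 d it rose by 3.40 ± 0.76 (edgeR, adjusted p = 0.0054). With the compared groups fitted alone, this second call was lost (adjusted p = 0.077 in edgeR), at a log2 fold change of 3.42. From 1 d to 7 d, Dusp5 fell by 5.12 ± 0.86 in WT microglia (edgeR, adjusted p = 0.00052) and by 3.31 ± 0.76 in Fgg390-396A microglia (edgeR, adjusted p = 0.012). As WT microglia at 7 d held only 5 counts in 3 libraries, the ratio of summed counts, 36.3-fold, had a 95% counting interval from 15.3 to 113 (exact conditional binomial). The fall in Fgg390-396A microglia lost its call when replicate 1 or replicate 3 of the 7 d group was left out (adjusted p = 0.079 and 0.051 in edgeR).

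Neutrophil markers were uneven across the microglia libraries. The 10 markers summed to 1.94 to 630 CPM in sham, 123 to 775 CPM in WT and 23.1 to 338 CPM in Fgg390-396A microglia at 1 d, and 46.6 to 668 CPM in WT and 182 to 266 CPM in Fgg390-396A microglia at 7 d. These ranges overlapped between the days, whereas those of Dusp5 did not. The 2 WT libraries at 1 d with the most markers, replicates 1 and 3 with 775 and 511 CPM, had 1.76 and 4.02 CPM of Dusp5. Sham replicate 3, with 630 CPM of the markers, had 0.126 CPM of Dusp5, and WT replicate 1 at 7 d, with 668 CPM, had 0.0478 CPM. Sums follow the most abundant markers. The mean log2 CPM of the 10 markers was 2.54 and 1.79 in WT replicates 1 and 3 at 1 d. It was 3.99 in sham replicate 3 and 3.73 in WT replicate 1 at 7 d. Against sham, the median log2 fold change of the markers in WT microglia at 1 d was -0.93, with 0 called. Genes of the heat shock and dissociation response summed to 1084 to 1905 CPM in sham microglia, 2768 to 4914 CPM in 1 d microglia and 1312 to 1666 CPM in 7 d microglia, so within microglia they were highest on the same day as Dusp5. Of the 22 genes of this list, 10 were called higher and 1 lower in WT microglia at 1 d (8.06% and 4.21% of all genes), and 9 higher and 1 lower in Fgg390-396A microglia (5.49% and 1.15%). The part of either list in the Dusp5 result was not tested.

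**Figure D2:**
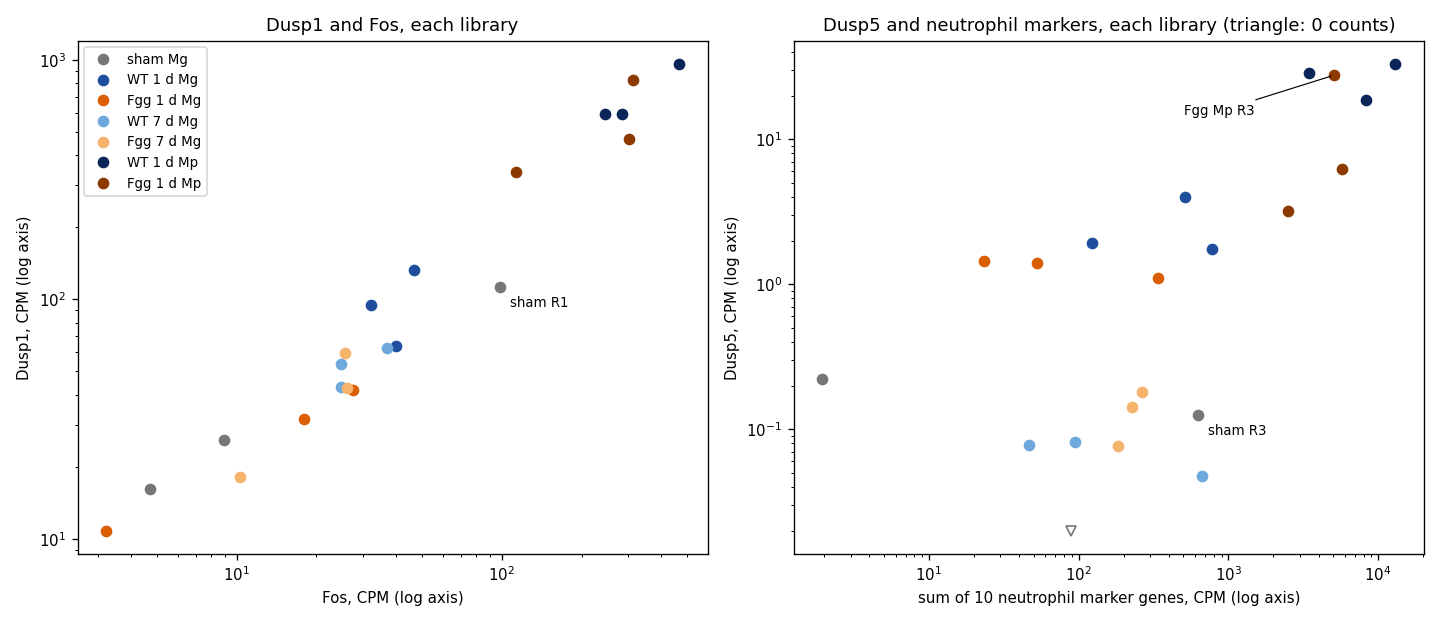
Left, Dusp1 against the immediate early gene Fos in each of the 21 libraries, and right, Dusp5 against the sum of 10 neutrophil markers, all in CPM on log axes with libraries coloured by group. Sham replicate 1 lies at 98.5 CPM of Fos and 113 CPM of Dusp1, away from the other sham libraries, and sham replicate 3 holds 630 CPM of neutrophil markers with 0.126 CPM of Dusp5.

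Dusp6 moved the other way in WT microglia (chromosome 10, 99263231 to 99267489, plus strand). Its levels were 99.7, 97.6 and 45.0 CPM in sham, 35.8, 25.8 and 29.4 CPM in WT microglia at 1 d and 57.0, 41.8 and 49.1 CPM in Fgg390-396A microglia at 1 d. All WT 1 d libraries lay below all sham and all Fgg390-396A libraries of the same day, and the Fgg390-396A libraries overlapped the lowest sham library. Of all genes, 33.8% did not overlap between WT 1 d microglia and sham, and 8.72% did not between the genotypes at 1 d. At 7 d it stood at 42.8, 52.5 and 45.9 CPM in WT and at 67.8, 33.7 and 55.2 CPM in Fgg390-396A microglia.

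Dusp6 fell by 1.41 ± 0.30 on the log2 scale in WT microglia at 1 d (edgeR, adjusted p = 0.0019), which is past a bar of 1 but not past one of 1.5. In Fgg390-396A microglia at 1 d its log2 difference from sham was -0.71 ± 0.29 (edgeR, adjusted p = 0.16). In WT microglia at 7 d the difference was -0.78, and none of the 10 genes had an adjusted p under 0.24 there (edgeR). With all libraries, Dusp6 thus missed both the bar and the adjusted p in these 2 comparisons. Both results depended on replicate 3 of the sham group, the lowest. Without it, Dusp6 was called lower in Fgg390-396A microglia at 1 d (just past the bar, edgeR, adjusted p = 0.026) and in WT microglia at 7 d (-1.07, adjusted p = 0.042).

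Dusp1, the immediate early phosphatase that inactivates p38 and JNK, varied widely among the sham libraries (chromosome 17, 26505590 to 26562128, minus strand). It stood at 113, 16.2 and 26.0 CPM in sham microglia, at 94.9, 63.8 and 133 CPM in WT and at 31.8, 10.8 and 41.9 CPM in Fgg390-396A microglia at 1 d. At 7 d the values were 42.9, 62.8 and 53.8 CPM in WT and 18.1, 42.9 and 60.0 CPM in Fgg390-396A microglia. Sham replicate 1 was thus as high as the WT 1 d libraries. The same library had 98.5 CPM of Fos against 4.71 and 8.95 CPM in the other sham libraries, and 895 CPM of a list of 17 early-response transcription factors against 250 and 242 CPM.

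The Dusp1 promoter is printed for the cAMP response element that it carries. From 200 to 101 bases before the RefSeq start, chr17:26508573-26508672 on the minus strand of GRCm38.p6, its sequence is given here with the full element, TGACGTCA, in capitals.
Dusp1: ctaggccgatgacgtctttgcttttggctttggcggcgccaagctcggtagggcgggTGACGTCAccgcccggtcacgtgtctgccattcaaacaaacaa
The element begins 143 bases before the start. That RefSeq start lies inside the GENCODE span of the gene, which on the minus strand begins at 26562128. The sequence is thus the promoter of the RefSeq start only. It was found in 1.79% of the 32851 promoter sequences and in 1 of the 9 available for the 10 genes. The AP-1 motif TGANTCA was found in 7.81% of all the promoter sequences and in 0 of the 9, which says only that these letters are not in this window.

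With all libraries, Dusp1 did not pass the test against sham in WT microglia at 1 d (log2 fold change 0.91 ± 0.59, edgeR, adjusted p = 0.33) or in Fgg390-396A microglia at 1 d (-0.88 ± 0.59, adjusted p = 0.43). Without sham replicate 1 it was called higher in WT microglia, at 2.20 (edgeR, adjusted p = 0.011). Dusp2, a nuclear phosphatase of activated leukocytes, was also affected by that library. It was at 0.701, 0.114 and 0.251 CPM in sham and at 1.37, 0.905 and 2.19 CPM in WT microglia at 1 d. These did not overlap, as was so for 33.8% of all genes. Its log2 fold change was 2.05 ± 0.72 (edgeR, adjusted p = 0.058), and 2.97 without sham replicate 1 (adjusted p = 0.020). With all libraries, Dusp2 was called by DESeq2 (1.96, adjusted p = 0.021) and, with a stricter filter on low counts, by edgeR (2.03, adjusted p = 0.039). It was not called with DESeq2's size factors in edgeR, without a filter, with the replicate number as a block or with the compared groups alone. In Fgg390-396A microglia at 1 d, Dusp2 was at 0.298, 0.428 and 0.603 CPM, within the range of sham.

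Spry1, an inhibitor of receptor tyrosine kinase signalling, was at 2.61, 2.89 and 1.06 CPM in sham microglia and at 0.382, 0.579 and 0.195 CPM in WT microglia at 1 d (chromosome 3, 37639947 to 37644598, plus strand). These groups did not overlap, as was so for 5 of the 10 genes and 33.8% of all genes. The log2 fold change of -2.49 ± 0.94 did not pass (edgeR, adjusted p = 0.079). The call was made by DESeq2 (-2.61, adjusted p = 0.0022), with a stricter filter on low counts (edgeR, adjusted p = 0.049) and with the compared groups fitted alone (edgeR, adjusted p = 0.039). It was not made with DESeq2's size factors in edgeR, without a filter, with the replicate number as a block or with any library left out. In Fgg390-396A microglia at 1 d Spry1 was at 0.537, 1.08 and 0.442 CPM (log2 fold change -1.66 ± 0.90, edgeR, adjusted p = 0.31). DESeq2 called it there too (-1.81, adjusted p = 0.046). Spry1 lies on the same chromosome as Fgg but 45.4 Mb away.

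The other 5 genes did not pass against sham in any of the 4 comparisons with all libraries. Dusp4, a nuclear phosphatase, was at 0.176 to 0.266 CPM in sham, 0.470 to 0.534 CPM in WT and 0.241 to 0.552 CPM in Fgg390-396A microglia at 1 d, that is, 6 to 37 counts per library. Dusp10, which acts on JNK and p38, ranged from 0.273 to 1.98 CPM over all microglia libraries, and Dusp16 from 4.82 to 11.6 CPM. Spry2 never exceeded 0.478 CPM in microglia. Spred1, which brings neurofibromin to the membrane, held a narrow range of 21.3 to 44.9 CPM. Its log2 difference from sham lay in a 95% interval from -0.08 to 0.85 in WT and from -0.48 to 0.46 in Fgg390-396A microglia at 1 d, so a change past the bar of 1 was outside both intervals.

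Set against all genes, 2 of the 10 genes were called in WT microglia at 1 d (adjusted p under 0.05 in edgeR and a log2 fold change beyond 1 in either direction), where 12.3% of 23815 tested genes were called. One of the 10, Dusp5, was called higher (8.06% of all genes), and 1, Dusp6, was called lower (4.21%). In Fgg390-396A microglia at 1 d, 1 of 10 was called higher, beside 5.49% of all genes. At 7 d, edgeR called 0 of 10 in WT microglia (2.02% of all genes) and 0 of 10 in Fgg390-396A microglia (0.663%). In each genotype at 7 d, 1 of the 10 genes was at an unadjusted p under 0.05, beside 2783 of the 23815 genes in WT and 1808 in Fgg390-396A microglia, and DESeq2 called 0 of the 10. From 1 d to 7 d, 1 of 10 was called lower in WT (4.39% of all genes) and 1 of 10 in Fgg390-396A microglia (2.88%). Scaling with DESeq2's size factors shifted the log2 fold changes of the 10 genes in Fgg390-396A microglia at 1 d against sham by a median of -0.13, and moved the share of higher genes among all called ones from 82.7% to 71.7%. The calls of the 10 genes stayed as they were.

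**Figure D3:**
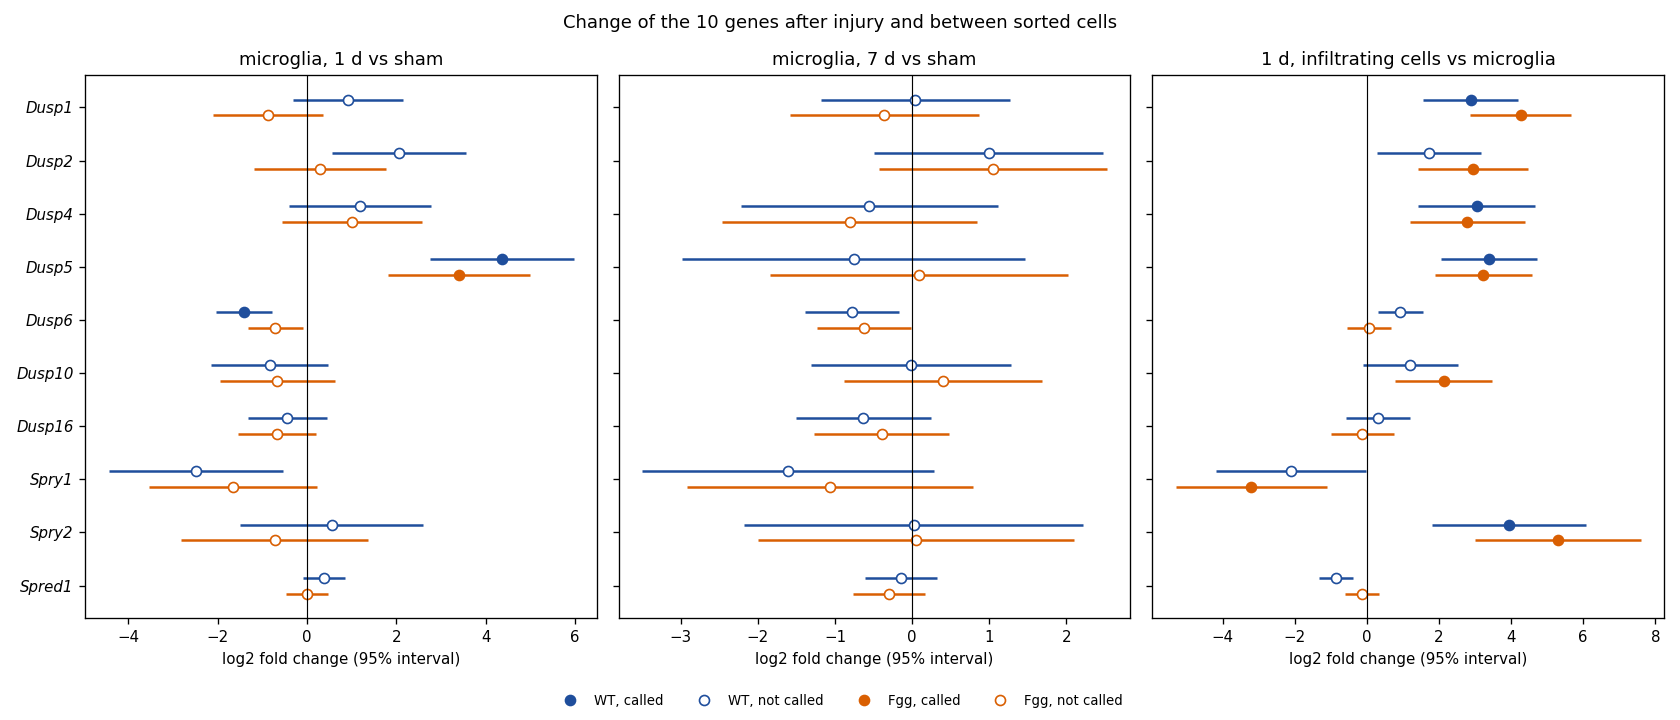
Log2 fold change of the 10 genes with its 95% interval in edgeR for microglia at 1 d and at 7 d against sham, and for infiltrating cells against microglia at 1 d, in WT (blue) and Fgg390-396A mice (orange), with filled points for called genes. Dusp5 is called at 1 d in both genotypes and nothing at 7 d, and between the sorted cells Dusp1, Dusp4, Dusp5 and Spry2 are called higher in both genotypes.

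The sorted cells at 1 d differed in more of the 10 genes than any other pair of groups compared. Dusp1 was at 962, 595 and 592 CPM in WT and at 465, 340 and 827 CPM in Fgg390-396A infiltrating cells, above every microglia library. It was higher than in microglia of the same genotype by 2.88 ± 0.63 (edgeR, adjusted p = 0.0030) and 4.27 ± 0.67 (adjusted p = 0.00012) on the log2 scale. Over all 7 groups the mean of Dusp1 ran from WT and Fgg390-396A infiltrating cells (716 ± 213 and 544 ± 253 CPM) through WT microglia at 1 d (97.2 ± 34.6), WT microglia at 7 d (53.2 ± 9.96), sham (51.7 ± 53.3) and Fgg390-396A microglia at 7 d (40.3 ± 21.1) to those at 1 d (28.2 ± 15.9). Both infiltrating groups overlapped, and among microglia each group overlapped its neighbour in this order, except that the lowest WT library at 1 d (63.8 CPM) was just above the highest at 7 d (62.8 CPM). The genes most like Dusp1 over the 7 group means of log2 CPM, by Pearson's r and out of 11452 genes, were Fos (0.998), Car6 (0.995) and Gzmb (0.995). These r are the highest of many, on 7 points of which the infiltrating groups stand far from the others. Shared regulation was not tested.

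Dusp5, too, was at its highest in infiltrating cells. WT infiltrating cells had 18.6, 28.7 and 33.0 CPM and Fgg390-396A infiltrating cells had 3.21, 6.19 and 27.7 CPM. Both stood above microglia, by 3.38 ± 0.64 (edgeR, adjusted p = 0.00088) and by 3.23 ± 0.64 (adjusted p = 0.0011). Replicate 3 of the Fgg390-396A infiltrating cells was in the range of WT, while the other replicates were below it.

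Dusp4 reached 2.32, 5.69 and 4.55 CPM in WT and 3.03, 3.58 and 2.66 CPM in Fgg390-396A infiltrating cells. It was higher than in microglia by 3.04 ± 0.77 (edgeR, adjusted p = 0.0094) and 2.78 ± 0.76 (adjusted p = 0.012), and the second call was lost without replicate 3 of the Fgg390-396A microglia (2.51, adjusted p = 0.056). Spry2 was at 7.09, 2.00 and 4.01 CPM in WT and at 5.33, 2.54 and 6.02 CPM in Fgg390-396A infiltrating cells. Its differences from microglia were 3.94 ± 1.02 (edgeR, adjusted p = 0.011) and 5.30 ± 1.09 (adjusted p = 0.0016). Microglia at 1 d held 1 to 12 counts of Spry2 per library, so these folds rest on a small base.

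Spry1 ran opposite to Spry2. In infiltrating cells it had 1, 4 and 1 counts in WT and 2, 5 and 0 counts in Fgg390-396A libraries, mostly at or near the floor. In Fgg390-396A mice it was called lower than in microglia (-3.21 ± 1.00, edgeR, adjusted p = 0.027), and the ratio of summed counts was 9.61-fold with a 95% counting interval from 4.48 to 24.6. That call was lost without replicate 2 of the microglia or replicate 1 or 3 of the infiltrating cells, and with the compared groups fitted alone (adjusted p between 0.057 and 0.22 in edgeR). In WT mice the log2 difference was -2.10 ± 0.99 (adjusted p = 0.18). Over the 7 group means Spry1 was most like Zfp229 (Pearson's r 0.999), Crot (0.997) and Zfp606 (0.997), with the same limit as for Dusp1.

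Dusp2 and Dusp10 were called higher in infiltrating cells of Fgg390-396A mice, by 2.95 ± 0.73 (edgeR, adjusted p = 0.0062) and 2.13 ± 0.64 (adjusted p = 0.021). In WT mice their log2 differences were 1.71 ± 0.69 (adjusted p = 0.11) and 1.2 ± 0.63 (adjusted p = 0.23). The Dusp2 and Dusp10 calls in Fgg390-396A mice were both lost with the compared groups fitted alone, and the Dusp10 call without replicate 2 of the microglia (1.74) or replicate 1 of the infiltrating cells (1.87). In WT mice the log2 difference of Dusp6 was 0.93 ± 0.29 (adjusted p = 0.036) and that of Spred1 was -0.86 ± 0.23 (adjusted p = 0.012), both short of the bar of 1. Spred1 passed the bar without replicate 1 of the WT microglia (-1.06), and Dusp6 passed it without that library (1.07) or without replicate 2 of the WT infiltrating cells (1.08). Dusp16 was within 0.31 of zero on the log2 scale in both genotypes.

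In sum over the list, 4 of 10 genes were called higher in infiltrating than in resident cells in WT mice, beside 5.61% of all genes. In Fgg390-396A mice 6 of 10 were called higher, beside 6.96% of all genes, and 1 was called lower, beside 9.7%. Groups did not overlap for 7 of the 10 genes in each genotype, beside 29.2% of all genes in WT and 32.1% in Fgg390-396A mice. The median log2 difference of the 10 genes was 1.46 in WT and 2.46 in Fgg390-396A mice, against medians of 0 and -0.13 over all genes tested. The 10 genes had been chosen with results of these data known. The infiltrating libraries held 2516 to 12992 CPM of neutrophil markers and 830 to 1345 CPM of monocyte markers, and which of these cells carried the phosphatase RNA was not tested. The gate and the number of cells collected differed with the cell type and cannot be told apart from it.

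The mutant mice were compared with WT mice of the same day and cell type. In microglia at 1 d, edgeR called 0 of the 10 genes between the genotypes (adjusted p under 0.1 and the same bar of 1), where 0.0546% of all genes, or 13, were called. DESeq2 also called 0 of the 10. Even so, 4 of the 10 genes had groups that did not overlap, beside 8.72% of all genes, and 3 of the 10 were at an unadjusted p under 0.05, as were 1209 of the 23815 genes tested. Dusp1 was lower in all 3 Fgg390-396A libraries than in any WT library (log2 difference -1.79, 95% interval -3.05 to -0.53, edgeR, adjusted p = 0.87). Dusp2 did so too (-1.76, interval -3.23 to -0.28, adjusted p = 0.89), as did Dusp5 (-0.96, interval -2.24 to 0.31, adjusted p = 0.89). Dusp6 was higher in all 3 Fgg390-396A libraries (0.70, interval 0.09 to 1.31, adjusted p = 0.89). None of these passed over all genes.

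The summed microglia markers did not overlap between the same libraries, at 2766 to 4655 CPM in WT and 5317 to 6887 CPM in Fgg390-396A microglia at 1 d. The 17 early-response transcription factors summed to 422 to 481 CPM in WT and to 207 to 389 CPM in Fgg390-396A microglia. Their part in the values of the 10 genes was not tested.

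**Figure D4:**
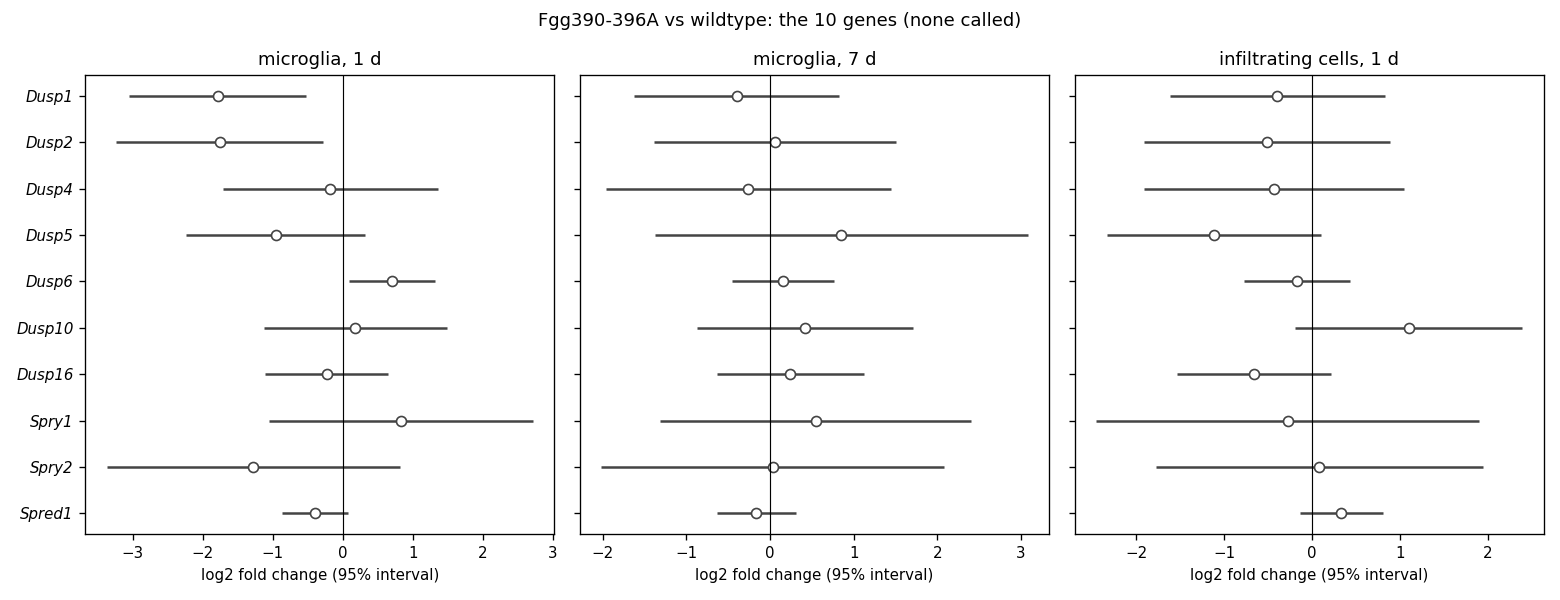
Log2 difference between Fgg390-396A and WT mice for the 10 genes, with its 95% interval in edgeR, in microglia at 1 d, microglia at 7 d and infiltrating cells at 1 d, with open points because no gene was called. At 1 d the intervals of Dusp1 and Dusp2 lie below zero and that of Dusp6 above it before adjustment for the number of genes tested.

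At 7 d, edgeR and DESeq2 each called 0 of the 10 genes between genotypes in microglia (9 genes, 0.0378% of all, in edgeR), and 0 were at an unadjusted p under 0.05. Only Dusp16 had groups that did not overlap, 1 of 10 beside 11.1% of all genes, at 6.99, 7.97 and 7.24 CPM in Fgg390-396A and 5.54, 6.87 and 6.38 CPM in WT microglia. The Dusp1 difference was -0.40 with an interval from -1.63 to 0.83.

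In infiltrating cells, 0 of the 10 genes were called by edgeR or DESeq2, where edgeR called 108 genes, 0.453% of all. None of the 10 was at an unadjusted p under 0.05, and 0 had groups that did not overlap (8.02% of all genes). The farthest from zero were Dusp5 at -1.11 (interval -2.33 to 0.11, adjusted p = 0.46 in edgeR) and Dusp10 at 1.10 (interval -0.19 to 2.39, adjusted p = 0.49). Without replicate 3 of the Fgg390-396A infiltrating cells, the library with 27.7 CPM, Dusp5 was called lower in the mutant (-2.50, edgeR, adjusted p = 0.027). That library had 5092 CPM of neutrophil markers and 1345 CPM of monocyte markers, beside 2516 and 5723 CPM, and 1118 and 1029 CPM, in the other replicates of its group.

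Whether the genotype effect differed by day or by cell was tested as an interaction. At an adjusted p under 0.1 in edgeR, 0 of 10 genes differed between 7 d and 1 d microglia (0.0% of all genes, with 653 genes and 0 of the 10 at an unadjusted p under 0.05). Between infiltrating cells and microglia at 1 d, 0 of 10 differed (0.0462% of all genes, with 1994 genes and 2 of the 10 at an unadjusted p under 0.05). DESeq2 called 0 of the 10 in either. The Dusp1 effect differed by 1.39 between the days, with a 95% interval from -0.36 to 3.13, so neither equal nor different effects were shown.

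The relatives outside the list and the rest of the pathway were read from lists of symbols. Dusp7, a cytoplasmic ERK phosphatase and close relative of Dusp6, fell in WT microglia at 1 d, from 53.6, 65.6 and 70.5 CPM in sham to 21.0, 19.3 and 16.6 CPM (-1.74 ± 0.32 on the log2 scale, edgeR, adjusted p = 0.00069). It stood at 32.4 ± 9.68 CPM in Fgg390-396A microglia at 1 d, at 37.2 ± 6.05 and 40.9 ± 8.13 CPM at 7 d, and at 11.7 ± 3.58 and 15.1 ± 8.87 CPM in WT and Fgg390-396A infiltrating cells. Between the cells of Fgg390-396A mice, Dusp7 was called lower in the infiltrating ones (-1.11 ± 0.32, edgeR, adjusted p = 0.017), as was Dusp8, with 1 count in 3 libraries against 31. In WT mice neither gene was called between the cells, and Dusp8 had 27 counts in infiltrating cells against 52 in microglia. Dusp9 was never above 0.228 CPM in a group mean. Of the other Sprouty and Spred genes, 3 of 4 were in the table, and 0 were called in any comparison. Spred2 was at 8.04 to 11.7 CPM, Spred3 at 0.678 to 1.39 CPM and Spry4 at no more than 0.192 CPM in the group means.

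Among 10 MAP kinases, the substrates, only Mapk14, which encodes p38 alpha, was called against sham. It fell in WT microglia at 1 d from 33.6 to 15.9 CPM (-1.08 ± 0.18, edgeR, adjusted p = 0.00020), where 4.21% of all genes were called lower. Of 19 upstream kinases, 2 were called higher and 2 lower in WT microglia at 1 d (8.06% and 4.21% of all genes), and 1 higher in Fgg390-396A microglia (5.49%). Map2k3, a kinase that activates p38, was higher in both, by 1.18 ± 0.20 (adjusted p = 0.00028) and 1.02 ± 0.20 (adjusted p = 0.0018). Map2k6, which also activates p38, was lower in WT (-2.45 ± 0.54, edgeR, adjusted p = 0.0031). In the list of 6 genes of the p38 arm, Mapkapk2, a kinase activated by p38, rose in both genotypes, by 1.35 ± 0.22 and 1.07 ± 0.22 (edgeR, adjusted p = 0.00016 and 0.0023). It was the 1 gene of the 6 called in each, beside 8.06% and 5.49% of all genes called higher.

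Of 14 genes of the Ras module, WT microglia at 1 d had 1 called higher (8.06% of all genes), Hras at 1.36 ± 0.41 (edgeR, adjusted p = 0.025), and 2 called lower (4.21%). These were the exchange factor Rasgrp3 (-1.21 ± 0.27, adjusted p = 0.0035) and the GTPase-activating protein gene Rasal3 (-1.32 ± 0.39, adjusted p = 0.023). Hras was also the 1 gene called higher in Fgg390-396A microglia at 1 d (1.33 ± 0.41, adjusted p = 0.043), where 0 were called lower, beside 5.49% and 1.15% of all genes. Between the cells of WT mice, 1 of the 14 was called higher and 3 lower in infiltrating cells, beside 5.61% and 6.31% of all genes. Rasgrp3 and Rasal3 were lower there, with log2 differences of -2.91 ± 0.29 and -2.11 ± 0.40 (edgeR, adjusted p = 1.2e-06 and 0.00096), while Rasgrp1 was higher (3.94 ± 0.90, adjusted p = 0.0044). The same comparison in Fgg390-396A mice gave 2 genes called higher and 2 lower (6.96% and 9.7% of all genes). Among them were Rasgrp3 (-2.59 ± 0.29), Rasal3 (-2.68 ± 0.41) and Rasgrp1 (4.16 ± 0.90, edgeR, adjusted p = 2.9e-06, 9.1e-05 and 0.0022).

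Of the 17 early-response transcription factors, 7 were called higher and 0 lower in WT microglia at 1 d (8.06% and 4.21% of all genes), and 3 higher and 0 lower in Fgg390-396A microglia (5.49% and 1.15%). Their median log2 fold changes were 1.05 and 0.12, against 0 over all genes. Phlda1, Fosl1 and Ier3 rose in both, in WT by 4.65 ± 0.64, 4.81 ± 0.81 and 2.70 ± 0.49 (edgeR, adjusted p = 3.2e-05, 0.00024 and 0.00054) and in Fgg390-396A microglia by 3.21 ± 0.62, 2.93 ± 0.76 and 1.69 ± 0.48 (adjusted p = 0.0016, 0.016 and 0.027). Between the cells at 1 d, 10 were called higher and 1 lower in WT infiltrating cells, and 12 higher and 1 lower in those of Fgg390-396A mice, beside 5.61% and 6.31% of all genes in WT and 6.96% and 9.7% in Fgg390-396A mice. Fosl2 and Atf3, partners in AP-1 complexes, were higher by 2.87 ± 0.41 and 2.51 ± 0.40 in WT mice (edgeR, adjusted p = 5.4e-05 and 0.00017). No gene of any list in this or the preceding paragraphs was called between genotypes. Of 9 small DUSPs that lack a MAP kinase binding domain, Dusp3 alone was called against sham (1.12 ± 0.29 in WT microglia at 1 d, edgeR, adjusted p = 0.0099), where 8.06% of all genes were called higher.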

How the data were processed

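The authors ran nf-core/rnaseq (Trim Galore, STAR and salmon, mouse genome GRCm38), and the table they deposited holds salmon's expected counts. These deposited estimated counts are scaled so that a library sums to its mapped reads, with gene length divided out and no normalization between libraries. Reads were amplified before sequencing, and ribosomal RNA genes took 43.0% to 58.5% of a library. The submitters' processing notes name R 4.2.0 and DESeq2 1.36.0. Values were rounded to whole counts. Of 45706 identifiers, 45143 matched GENCODE M21, the source of symbols and gene coordinates. Promoter sequences came from RefSeq (GRCm38.p6), which held 9 of the 10 genes. They were searched for TGACGTCA, TGANTCA and the CArG box on both strands.

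One model of the 21 libraries was fitted with edgeR 4.0.16 under R 4.3.3 (TMM factors of 0.735 to 1.55, glmQLFit and glmQLFTest, 1 mean per group, Benjamini-Hochberg adjustment). A gene needed a sum of at least 5 counts to be tested, which left 23815, all 10 genes of the report included. A call needed an adjusted p under 0.05 (under 0.1 between genotypes) and a log2 fold change beyond 1 in either direction. Interactions had no bar on the fold change. SEs are the fold change divided by the square root of F. Tests are two-sided. The fit was tested on simulated data in which 200 genes with a mean above 1 CPM were changed by 2 on the log2 scale. It called 60.5% of them with the right sign for WT 1 d microglia against sham, and 62.5% for the genotypes at 1 d. Of the unchanged genes it called 5 and 7. A gene that was not called may therefore still have changed. Each simulated gene was set at its mean over all libraries. The rates thus do not apply to genes as rare in microglia as Dusp2, Dusp4, Dusp5 or Spry2.

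The 10 genes, the lists (MAP kinases, upstream kinases, Ras module, p38 arm, early-response transcription factors, small DUSPs, relatives of the 10 genes, dissociation response, and microglia, monocyte and neutrophil markers) and the tests were chosen with earlier results of these data known. All 10 genes were tested in every comparison, and the number called is given for each. Values of single genes are given for only part of the 10 in most comparisons. Of the lists, counts and up to 3 called genes with the smallest adjusted p were given for some of the comparisons, and every relative of the 10 genes. The lists also held calls in other comparisons, mainly between the cells and from 1 d to 7 d, that are not given. Likeness was Pearson's r of mean log2 CPM over the 7 groups, among protein-coding genes with at least 1 CPM in a group mean. It is given for Dusp1 and Spry1, and that of Dusp6 is not reported here. The labels call each library a biological replicate of 2 pooled brains. Alternatives were DESeq2 1.42.0, its size factors, filterByExpr, no filter, no bar, the replicate number as a block, the compared groups alone and each library left out. A bar of 1.5 was added after the data were seen.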

Additional observations from a re-analysis of the deposited data

How the results depend on the processing

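Over 7 alternative settings and 21 left-out libraries, none of the 16 called differences of the 10 genes changed sign. Sign changes occurred 76 times, all among differences that were not called. In WT microglia at 1 d against sham, 2 genes were called, and 4 with DESeq2, 4 with filterByExpr, 3 with the compared groups alone, 1 with a bar of 1.5 (added after the data were seen) and 2 to 4 with 1 library left out. In Fgg390-396A microglia at 1 d the count of 1 became 2 with DESeq2, 0 with the compared groups alone and 1 to 2 with 1 library left out. Between infiltrating cells and microglia of Fgg390-396A mice, 7 genes became 4 with the compared groups alone and 5 to 7 with 1 library left out. Leaving out 1 library gave 4 to 6 genes between the cells of WT mice, 0 to 1 in WT microglia at 7 d against sham, 0 to 1 in Fgg390-396A microglia from 1 d to 7 d, and 0 to 1 between genotypes in infiltrating cells. Apart from the settings that use fewer samples or another bar, the cause was not tested. With the replicate number as a block, the counts of the 10 genes were as without it, for example 2 in WT microglia at 1 d and 7 between the cells of Fgg390-396A mice. In no comparison were all same-numbered libraries correlated above 0.1, and the main fit took no pairing. Between genotypes in microglia at 1 d, however, same-numbered libraries had r of 0.354, 0.137 and 0.0951. With other numbers r averaged -0.192, -0.0582 and -0.0412. Between the cells of WT mice the values were 0.132, 0.163 and 0.0214, against -0.0720, -0.0736 and -0.0141. These r were of deviations from group means, which sum to 0 over a group. A positive r with the same number thus forces a negative average with other numbers, which adds no evidence of its own. Whether same-numbered libraries shared brains or a batch was not tested.

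Over the 7 alternative settings, counts over all genes moved by more than 1.5 times in the following cases. The counts over all genes with 1 library left out are not given here. DESeq2 called 104 instead of 13 genes between genotypes in microglia at 1 d, 80 instead of 9 at 7 d, 841 instead of 108 in infiltrating cells, 820 instead of 481 and 347 instead of 158 in WT and Fgg390-396A microglia at 7 d against sham, and 33 instead of 0 and 259 instead of 11 for the interactions with time and cell type. The compared groups alone gave 8, 19 and 7 genes between genotypes (1 d, 7 d, infiltrating cells), 85 for Fgg390-396A microglia at 7 d, 2211 instead of 3967 between the cells of Fgg390-396A mice and 0 for the interaction with cell type. In infiltrating cells the genotype count was 176 with filterByExpr and 66 with the block. Without a bar, 1343 instead of 844 genes were called in Fgg390-396A microglia from 1 d to 7 d. Depth limits Dusp2, Dusp4, Dusp5 and Spry2 in microglia and Spry1 in infiltrating cells, where a library held as few as 0 to 3 counts.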
